A study of Mus musculus with 12 samples.

Results

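The RGS-PX sorting nexins are a family of 4 mammalian proteins encoded in mouse by *Snx13*, *Snx14*, *Snx19* and *Snx25*, and *Snx14* is the gene mutated in the *Snx14*-KO mice sequenced here. The 4 genes were found by their gene names among the 55536 annotated genes counted in each library, and all 4 passed the filter on low counts in every comparison. In *Snx14*-KO tissue, the level of *Snx14* was 16.9% ± 1.00 (SD, n = 3 mice) of the WT mean in cerebellum and 14.4% ± 0.771 (SD, n = 3 mice) in cerebral cortex. The paralogs *Snx13*, *Snx19* and *Snx25* stood between 96.5% and 101% of their WT means in both tissues, and none passed the test of a difference. Of the 4 genes, *Snx14* had the largest fitted difference between the tissues of WT mice, 1.16-fold in favour of the cerebellum. It was too small to be called (log2 fold change over 0.50), while 40.4% of all genes tested were called between these tissues. Its adjusted p was 0.0233 with edgeR's quasi-likelihood test and 0.0504 with DESeq2.

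RNA was sequenced in bulk from cerebellum and cerebral cortex of 1-month-old C57BL/6J mice, with 3 libraries for each of WT cerebellum, *Snx14*-KO cerebellum, WT cortex and *Snx14*-KO cortex. The *Snx14*-KO mice carry a homozygous deletion of 1 base in exon 14 of *Snx14*. The deletion was made by Cas9 in fertilized eggs and is thus present in the whole body, and carriers were backcrossed to C57BL/6J before use. WT controls were littermates. The labels number the mice 1 to 3 within a genotype and use the same numbers for both tissues. The sex of the mice behind each library is not given in the sources used here, and the tissue is a mixture of cell types. In bulk tissue, fewer cells of a type and less RNA per cell cannot be told apart. Levels are given as TPM, a unit that divides counts by the exon length of the gene and by the total of the library, so that different genes can be set side by side.

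Sorting nexins are proteins that bind membrane phosphoinositides through a PX domain. The RGS-PX members are anchored in the endoplasmic reticulum (ER) by a hydrophobic segment near the N terminus and also carry a PXA domain and a C-terminal nexin domain. SNX13, SNX14 and SNX25 have in addition the domain of the regulator of G protein signaling type that names the family, which SNX19 lacks. They lie at contact sites between the ER and other organelles, and their yeast relative Mdm1 links the ER to the vacuole. SNX14 is known for gathering where lipid droplets grow from the ER, and its loss in humans causes the recessive ataxia SCAR20. SNX13 was described as a protein that acts on the stimulatory G protein alpha subunit and is linked to cholesterol handling at lysosomes. SNX19 holds endolysosomes near the ER and binds the dense-core vesicle proteins of the PTPRN family, and SNX25 is linked to the degradation of TGF-β receptors.

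The deletion and the frame it opens are shown on the reference sequence of the transcript *Snx14*-207, which has 29 exons and encodes 973 residues. The gene is read from the minus strand at chr9:88376750-88438958 (GRCm38), and its exon 14 covers chr9:88402144-88402268. In the first sequence the capitals mark the codon GAG, codon 478, in which the deleted G lies at position 88402182. Exon 15 covers chr9:88401920-88401978, and there the capitals mark the stop codon TAA that the shifted frame reads first. Both are coding sequence, written 5′ to 3′ along the transcript without the deletion.
*Snx14* exon 14: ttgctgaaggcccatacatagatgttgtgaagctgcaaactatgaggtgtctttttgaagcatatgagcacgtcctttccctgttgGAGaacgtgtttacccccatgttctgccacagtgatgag
*Snx14* exon 15: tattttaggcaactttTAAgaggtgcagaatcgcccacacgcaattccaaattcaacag
Translating the transcript without the deleted base gave 18 altered residues and then this stop, for a product of 495 residues. In *Snx14*-207, 14 exon junctions follow the new stop, and 1394 bases lie between it and the last junction. In *Snx14*-204, which has 28 exons, 13 junctions and 1367 bases follow. A stop well before the last junction is the known trigger of nonsense-mediated decay, and whether that process acts on these transcripts was not tested. The deleted base lies in 4 of the 8 annotated *Snx14* transcripts.

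The other genes lie apart from *Snx14* and from each other. *Snx13* (ENSMUSG00000020590.16) is on the plus strand at chr12:35047186-35147479, *Snx19* (ENSMUSG00000031993.7) on the plus strand at chr9:30427108-30466733, and *Snx25* (ENSMUSG00000038291.16) on the minus strand at chr8:46033261-46152159. They encode 958, 997 and 986 residues in the longest coding transcripts of the annotation. Pairs of the 4 proteins, translated from those transcripts, shared between 24.1% (SNX14 and SNX19) and 30.2% (SNX13 and SNX25) of their aligned residues. In an alignment of all 4, 43 of 630 columns without a gap (6.83%) held the same residue. The stretch of 20 residues with the most such columns had 5, and the 60 coding bases behind it are shown to set out how far the paralogs have diverged, with the codons of the 5 identical residues in capitals.
*Snx13* codons 252 to 271: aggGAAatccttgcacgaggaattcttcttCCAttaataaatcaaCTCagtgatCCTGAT
*Snx14* codons 298 to 317: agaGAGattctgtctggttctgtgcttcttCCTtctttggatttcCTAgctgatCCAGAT
*Snx19* codons 240 to 259: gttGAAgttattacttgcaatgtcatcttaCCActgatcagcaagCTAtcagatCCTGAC
*Snx25* codons 277 to 296: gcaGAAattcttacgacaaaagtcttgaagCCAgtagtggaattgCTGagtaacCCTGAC
The longest run of bases shared between transcripts of any pair of the genes was 15, between *Snx13* and *Snx14*. Such runs are much shorter than a sequencing read, and the authors left out reads with several mapping positions.

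Exons that other genes share are another matter, because the authors counted a read pair for every gene it overlapped and ignored the strand. *Snx13* (7866 exon bases) and *Snx19* (6725 exon bases) share no exon base with another gene. *Snx25* shares 132 of 4440 exon bases (2.97%) with *Cfap97*, a gene on the opposite strand. *Snx14* (ENSMUSG00000032422.17) shares 545 of 6107 exon bases (8.92%) with *Gm20537*, a predicted gene on the same strand whose annotated transcripts run through *Snx14* exons. Those 545 bases are 54.0% of the exon bases of *Gm20537*, and a further 344 (34.1%) are shared with *Syncrip*.

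In WT cerebellum, *Snx14* was at 34.0, 33.6 and 37.6 TPM in mice 1, 2 and 3, from 1102 to 1248 read pairs. In *Snx14*-KO cerebellum, it was at 5.68, 5.79 and 6.34 TPM, from 198 to 217 read pairs. All KO cerebella lay far below all WT cerebella, and within each genotype the mice were close to each other. The cortex gave 28.5, 28.1 and 30.4 TPM in WT (1008 to 1051 read pairs) and 4.40, 4.20 and 3.95 TPM in *Snx14*-KO mice (129 to 145 read pairs). Again the genotypes did not overlap. The log2 fold change, fitted to counts scaled between libraries by edgeR's TMM method, was -2.57 in cerebellum (standard error 0.0792) and -2.80 in cortex (standard error 0.0951), with adjusted p = 1.69e-06 and 3.19e-08 (quasi-likelihood test of edgeR). A gene was called if the adjusted p was under 0.05 and the absolute log2 fold change over 0.50. By that rule *Snx14* was the 1 gene called of 18201 tested in cerebellum (0.00549%) and the 1 gene of 18255 in cortex (0.00548%), so 1 of the 4 nexin genes was called in each tissue. The number of called genes, unlike the call of *Snx14*, depended on the setting. In cerebellum it was 164 with DESeq2, 347 without the filter, 45 with all 12 libraries in 1 fit, 254 without *Snx14*-KO mouse 2 and 10 without WT mouse 2. In cortex it was 9 with DESeq2 and 149 without the filter. Groups that do not overlap were more common, at 12.2% of genes in cerebellum and 9.26% in cortex, and *Snx14* was the 1 of the 4 in both.

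**Figure D1:**
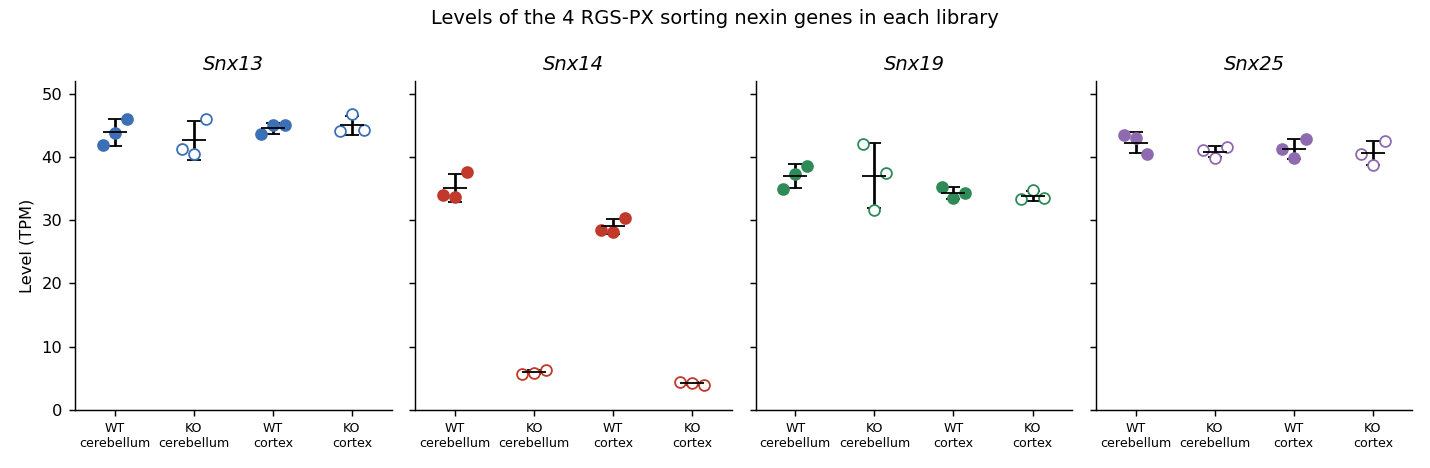
Level in TPM (y axis, from 0) of the 4 genes in every library, by group (x axis, mice 1 to 3 from left to right). Filled points are WT and open points *Snx14*-KO libraries, and the bars give the mean ± SD of 3 libraries. *Snx14* falls from 28.1 to 37.6 TPM in WT to 3.95 to 6.34 TPM in *Snx14*-KO tissue, while the other genes stay between 31.6 and 46.7 TPM in all groups.

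The count left on *Snx14* in *Snx14*-KO mice could come in any part from the exons shared with *Gm20537*. In each *Snx14*-KO library *Gm20537* had more read pairs than *Snx14*, with 343 to 352 against 198 to 217 in cerebellum and 232 to 348 against 129 to 145 in cortex. In WT libraries, taking the whole *Gm20537* count off that of *Snx14* still leaves at least 611 read pairs per cerebellum and at least 512 per cortex that lie outside the shared exons. *Gm20537* itself was at 92.9 ± 7.89 TPM in WT and 60.6 ± 5.60 in *Snx14*-KO cerebellum (SD, n = 3 each), and at 83.8 ± 9.17 and 55.5 ± 8.80 in cortex. Its log2 fold change was -0.62 in cerebellum (SE 0.107, quasi-likelihood adjusted p = 0.145) and -0.60 in cortex (SE 0.131, adjusted p = 0.744). DESeq2 called it in both tissues, with adjusted p = 0.000854 and 0.0393. Read pairs in the shared exons count for both genes, so its values are not independent of those of *Snx14*. The counts are sums over all exons and do not separate those before the deletion from those after it. The authors describe RNA counts as low in every coding exon of these mice, and counts per exon were not examined here.

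Among tested genes, *Snx14* moved from the upper to the lower part of the range. Its mean level was above that of 72.3% of the genes that passed the filter in WT cerebellum and of 31.4% in *Snx14*-KO cerebellum. In cortex these shares were 68.0% and 27.0%.

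*Snx13* was at 41.8, 43.7 and 46.0 TPM in WT cerebella and at 41.3, 40.5 and 46.0 TPM in *Snx14*-KO cerebella. The genotypes overlapped, and the log2 fold change was -0.05 with a 95% confidence interval from -0.20 to 0.11 (adjusted p = 0.946). In cortex, *Snx13* was at 43.6, 45.0 and 45.0 TPM in WT and at 44.0, 46.7 and 44.2 TPM in *Snx14*-KO mice. There the interval ran from -0.14 to 0.15 around a log2 fold change of 0.0058 (adjusted p = 0.996).

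*Snx19* gave the widest spread of the paralogs in *Snx14*-KO cerebellum. Its level was 34.9, 37.3 and 38.6 TPM in WT cerebella and 42.0, 31.6 and 37.5 TPM in *Snx14*-KO cerebella, where mouse 1 lay above and mouse 2 below all WT mice. The coefficient of variation of the *Snx14*-KO cerebella was 14.0%, against 2.24% to 5.05% in the other groups. The log2 fold change was -0.0025 with a 95% confidence interval from -0.21 to 0.21 (adjusted p = 0.998), and it was -0.10 without *Snx14*-KO mouse 1 and 0.072 without *Snx14*-KO mouse 2. In cortex, the WT mice were at 35.3, 33.4 and 34.3 TPM and the *Snx14*-KO mice at 33.4, 34.7 and 33.5 TPM. This difference had a log2 fold change of -0.03 and an interval from -0.16 to 0.11 (adjusted p = 0.996).

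In cerebellum, *Snx25* was at 43.5, 43.0 and 40.4 TPM in WT and 41.1, 39.8 and 41.5 TPM in *Snx14*-KO mice. Its log2 fold change there was -0.06, with an interval from -0.21 to 0.10 (adjusted p = 0.933). In cortex it was at 41.2, 39.8 and 42.9 TPM in WT and at 40.5, 38.7 and 42.5 TPM in *Snx14*-KO mice. The interval ran from -0.19 to 0.13 around -0.03 (adjusted p = 0.996). *Cfap97*, which shares exon bases with *Snx25*, had log2 fold changes of -0.05 in both tissues (adjusted p = 0.967 in cerebellum and 0.996 in cortex).

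Expressed as folds, the intervals of the 3 paralogs reached from 0.863 to 1.15 in cerebellum and from 0.874 to 1.11 in cortex. These bounds are not limits of detection, since a call also needs the fold threshold and an adjusted p under 0.05 over all genes. An adjusted p over the threshold does not show that the levels were equal. The fitted values lay close to 0, and for *Snx19* in cerebellum and for *Snx13* and *Snx25* in cortex their sign turned when single libraries were left out.

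**Figure D2:**
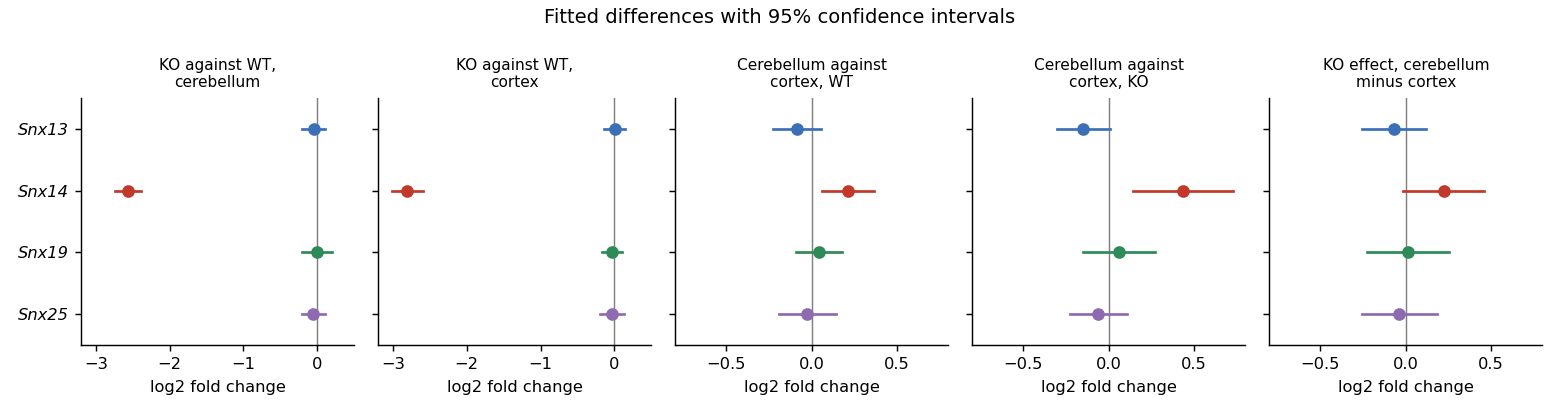
Fitted log2 fold changes (x axis) of the 4 genes in 4 comparisons and in the test of whether the KO effect differs between tissues, with 95% confidence intervals as lines. The x axes of the first 2 panels run further left than those of the others. Only the *Snx14* intervals leave 0 in the KO comparisons, and in the tissue comparisons the *Snx14* intervals alone lie above 0.

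The summed level of the family was lower in *Snx14*-KO tissue. The sum over the 4 genes was 158 ± 4.18 TPM in WT and 126 ± 7.52 TPM in *Snx14*-KO cerebella, and 149 ± 3.15 and 124 ± 1.15 TPM in cortices (SD, n = 3 each). The sum over the 3 paralogs was 123 ± 2.53 TPM in WT and 120 ± 7.37 TPM in *Snx14*-KO cerebella. In cortex it was 120 ± 1.95 and 119 ± 1.33 TPM. *Snx14* made up 22.2% of the family sum in WT cerebella and 4.71% in *Snx14*-KO cerebella, and 19.4% and 3.38% in cortices. The share of each paralog was higher in *Snx14*-KO tissue by this arithmetic, for example 33.7% against 27.7% for *Snx13* in cerebellum, with no difference in its level passing the test.

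**Figure D3:**
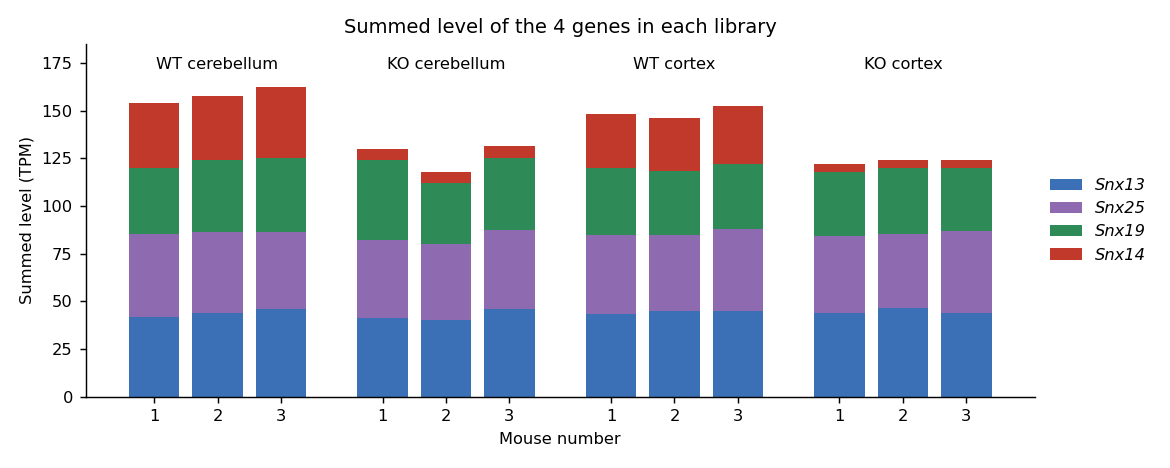
Summed level in TPM (y axis, from 0) of the 4 genes in each of the 12 libraries, by group and mouse number (x axis), with 1 colour per gene. The blocks of *Snx13*, *Snx25* and *Snx19* reach 112 to 125 TPM in every library, and the *Snx14* block on top is small in *Snx14*-KO libraries.

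The order of the levels was the same in both tissues of WT mice. In WT cerebellum, *Snx13* was highest with 43.9 ± 2.11 TPM, followed by *Snx25* with 42.3 ± 1.66, *Snx19* with 36.9 ± 1.87 and *Snx14* with 35.1 ± 2.17 (SD, n = 3). *Snx13* and *Snx25* overlapped, as did *Snx19* and *Snx14*, while all values of the former pair lay above those of the latter. In WT cortex the means were 44.5 ± 0.832 TPM for *Snx13*, 41.3 ± 1.55 for *Snx25*, 34.3 ± 0.945 for *Snx19* and 29.0 ± 1.24 for *Snx14*, and no neighbours in this order overlapped. In both tissues the 4 genes were within a narrow range and above 68.0% to 77.4% of the genes that passed the filter. The order rests on the exon length of each gene in the annotation, which takes in all of its transcripts.

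Whether the family differs between the tissues was tested in WT mice first. *Snx14* had higher values in cerebellum, with 33.6 to 37.6 TPM against 28.1 to 30.4 TPM in cortex and no overlap. Within the numbered mice, the ratio of cerebellum to cortex was 1.20, 1.20 and 1.24 in TPM. The log2 fold change was 0.21 (standard error 0.0693, 95% confidence interval 0.057 to 0.37, adjusted p = 0.0233), which is under the fold threshold, so *Snx14* was not called. This fit takes libraries of the same mouse as independent, and with mice as blocks the adjusted p was 0.0237. Of all genes tested between the WT tissues, 40.4% were called and 64.5% did not overlap, so a difference of this kind was common. The adjusted p of *Snx14* was 0.0504 with DESeq2 and 0.0517 without the filter, and 0.0658, 0.113 and 0.0850 without WT cerebellum mouse 3, WT cortex mouse 1 and WT cortex mouse 2. With library sizes alone the log2 fold change was 0.34 (adjusted p = 0.00170), in a scaling that shifted all genes toward the cerebellum.

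The paralogs did not pass the test between WT tissues. The log2 fold change, cerebellum against cortex, was -0.08 for *Snx13* (interval -0.23 to 0.056, adjusted p = 0.276), 0.04 for *Snx19* (interval -0.094 to 0.18, adjusted p = 0.577) and -0.03 for *Snx25* (interval -0.19 to 0.14, adjusted p = 0.783). For *Snx19* the ratio in TPM was 0.988, 1.12 and 1.12 in mice 1, 2 and 3, and for *Snx25* it was 1.06, 1.08 and 0.942. The mice thus fell on both sides of 1 for these genes. Scaling by library size alone moved the median of all genes by 0.12 on the log2 scale toward the cerebellum, and with it *Snx13* to 0.04, *Snx25* to 0.098 and *Snx19* to 0.17. For *Snx19* the adjusted p was then 0.0378, with the fold still under the threshold, and it stayed over 0.05 for the other pair.

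In *Snx14*-KO mice the count left on *Snx14* also had higher values in cerebellum. It was at 5.68 to 6.34 TPM there and at 3.95 to 4.40 TPM in cortex, with ratios of 1.29, 1.38 and 1.61 in mice 1, 2 and 3. The log2 fold change was 0.44 (standard error 0.130, adjusted p = 0.0181), again under the fold threshold, where 37.9% of genes were called and 60.6% did not overlap. Without *Snx14*-KO mouse 3 the adjusted p was 0.0558 (cerebellum left out) or 0.0580 (cortex left out). Blocking by mouse gave an adjusted p of 0.0333. With library sizes alone the log2 fold change was 0.57 (adjusted p = 0.00460), which passed the call rule, while the median of all genes moved by 0.14. *Snx13* was lower in *Snx14*-KO cerebella than cortices in scaled counts with no overlap, by a log2 fold change of -0.15 (interval -0.31 to 0.0065, adjusted p = 0.0995). With all 12 libraries in 1 fit its adjusted p was 0.0443, and with library sizes alone the log2 fold change was -0.012 (adjusted p = 0.905). In TPM the *Snx13* groups overlapped, and the ratio of cerebellum to cortex was 0.937, 0.866 and 1.04 in mice 1, 2 and 3. *Snx19* and *Snx25* overlapped, with log2 fold changes of 0.06 and -0.06 (adjusted p = 0.635 and 0.521).

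Whether the knockout effect itself differs between the tissues was tested over all 12 libraries. That fit takes libraries of the same mouse as independent. For *Snx14* the fitted log2 fold change in cerebellum minus that in cortex was 0.22 (standard error 0.112, interval -0.019 to 0.46, adjusted p = 0.931). The other 3 genes had differences of -0.07 (*Snx13*), 0.01 (*Snx19*) and -0.04 (*Snx25*), with adjusted p of 1.00 each. None of the 4 genes passed, and neither did any of the 19380 genes tested (0%). The number of genes passing was 36 with DESeq2, 418 without the filter and 257 without *Snx14*-KO cerebellum mouse 2. With mice as blocks, the difference for *Snx14* was 0.22 (adjusted p = 0.9095).

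Likeness between the genes was described over all 12 libraries, *Snx14*-KO libraries included. Pearson's r of log2(CPM + 1), with CPM scaled by TMM, was between -0.17 (*Snx13* and *Snx19*) and 0.307 (*Snx14* and *Snx25*). *Snx14* was at 53.6 to 67.0 CPM in WT and at 7.69 to 11.2 CPM in *Snx14*-KO libraries. Its r with another gene thus mostly reflects how that gene follows genotype. A low r with paralogs that differ little between libraries does not show that the genes are unlike. The libraries share mice and scaling, and these values are a description. By the same measure among 17057 other genes, *Snx14* was most like *Gm20537* (r = 0.917), with which it shares read pairs, *Clgn* (r = 0.900), the gene of an ER chaperone, and *Grk5* (r = 0.868), that of a G protein-coupled receptor kinase. *Snx13* was most like *Pikfyve* (r = 0.928), the gene of a phosphoinositide kinase of endosomes, *Gm13748* (r = 0.925) and *Cdc73* (r = 0.920). *Snx19* was nearest to *Pdpr* (r = 0.860), *Gm26860* (r = 0.831) and *Klhl11* (r = 0.826). The genes nearest to *Snx25* were *Gm21992* (r = 0.917), *Myadml2* (r = 0.882) and *Nrbf2* (r = 0.880).

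Genes around the 4 loci were examined for changes in *Snx14*-KO tissue. Within 500 kb of the start of *Snx14*, 14 other genes were tested in cerebellum and 13 in cortex, and 0 were called in either tissue by edgeR's quasi-likelihood test. At an unadjusted p under 0.05 there was 1 in each tissue, and DESeq2 called 1 in each, which was *Gm20537*. Their median log2 fold change was 0.15 in cerebellum and -0.06 in cortex, beside medians of -0.00062 and 8.2e-05 over all genes tested. Around *Snx13*, *Snx19* and *Snx25*, 2, 2 and 12 genes were tested in cerebellum and 2, 2 and 14 in cortex. None of these (0) was called by edgeR or DESeq2 or had an unadjusted p under 0.05.

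The pathways in which the nexins are placed were followed with 3 lists. The lipid transfer list holds 26 genes of proteins that transfer lipids or lie at ER contact sites, such as *Vps13a*. It includes *Npc1* and *Npc2*, which act in lysosomal cholesterol transport. The lipid droplet list holds 25 genes for making and breaking down triglyceride, activating and desaturating fatty acids, and forming and coating droplets, of which 23 were tested. The signalling list holds 14 genes of receptors, G proteins, adenylyl cyclases, SMAD transducers and vesicle proteins that were linked to a family member, such as *Htr6*, *Tgfbr1* and *Ptprn*.

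In the knockout comparisons, 0 genes of the 3 lists were called by edgeR's quasi-likelihood test or by DESeq2. Below the fold threshold, DESeq2 gave an adjusted p of 0.0277 to *Adcy1* in cerebellum (fitted log2 fold change -0.28) and of 0.0275 to *Adcy5* in cortex (-0.46), both adenylyl cyclase genes named after their values were seen. Of the lipid transfer genes, 0 of 26 in cerebellum and 1 of 26 in cortex had an unadjusted p under 0.05, and their median log2 fold changes were -0.01 and 0.01. Of the lipid droplet genes, 3 of 23 in cerebellum and 1 of 23 in cortex did, with medians of 0.02 in both tissues. Of the signalling genes it was 5 of 13 in cerebellum and 4 of 14 in cortex, with medians of 0.13 and -0.0062. The 4 in cortex, *Gnal*, *Drd1*, *Drd2* and *Adcy5*, all had negative fold changes. Among WT cortices *Drd1* was at 16.3 ± 6.44 TPM (SD, n = 3) and *Drd2* ranged from 4.09 to 19.4 TPM. Genes that vary together between mice are not separate observations, and whether these 4 do was not tested. Of the 5 in cerebellum, *Ptprn*, *Tgfbr1*, *Drd2* and *Adcy5* had positive fold changes and *Adcy1* a negative one. Over all genes tested, 8.15% in cerebellum and 4.50% in cortex had such a p.

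The signalling gene with the largest fitted knockout difference in either direction was *Drd2*, a dopamine receptor gene, named after its values were seen. Its log2 fold change was 2.63 in cerebellum (adjusted p = 0.367) and -2.42 in cortex (adjusted p = 0.883). It was at 1.42, 0.805 and 0.505 TPM in WT cerebella and at 8.23, 0.701 and 8.44 TPM in *Snx14*-KO cerebella. WT cortices had 4.81, 19.4 and 4.09 TPM and *Snx14*-KO cortices 3.33, 0.972 and 1.10 TPM. Single mice thus stood far from the others of their group, and the genotypes overlapped in cerebellum but not in cortex.

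Between WT tissues, genes of all 3 lists were called. In the lipid transfer list, 4 genes were called higher and 4 lower in cerebellum than in cortex, of 26, where 40.4% of all genes were called. The genes with the smallest p were *C2cd2l*, a phosphatidylinositol transfer protein gene (74.8 ± 6.85 TPM in cortex and 29.5 ± 2.27 in cerebellum), *Osbpl8*, a lipid exchanger of ER and plasma membrane (46.0 ± 2.76 and 25.5 ± 1.77), and *Vps13a*, a bridge-like lipid transfer protein (14.1 ± 0.0212 and 8.57 ± 0.718; SD, n = 3). All 3 were lower in cerebellum, by log2 fold changes of -1.40, -0.92 and -0.78 and with adjusted p from 1.59e-07 to 6.26e-06. In the lipid droplet list, 6 genes were called higher and 4 lower, of 23, a share close to that 40.4%. *Scd3*, a stearoyl-CoA desaturase gene, was at 3.98 ± 0.740 TPM in cortex and 31.7 ± 1.66 in cerebellum (log2 fold change 2.93, adjusted p = 4.15e-08). *Dgat2*, which makes triglyceride, and *Acsl4*, which activates fatty acids, were lower in cerebellum by -1.86 and -1.20 on the log2 scale (adjusted p = 7.69e-08 and 1.23e-06). *Scd3* has close paralogs, from which reads with several positions were left out.

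In the signalling list, 8 of 14 genes were called lower in cerebellum and 0 higher. Of all 18543 genes tested, 3967 were called lower and 3529 higher. *Ptprn2* (log2 fold change -1.42, adjusted p = 2.82e-08) and *Ptprn* (-2.30, adjusted p = 4.50e-08) encode dense-core vesicle proteins of the family that SNX19 binds. *Drd1*, a dopamine receptor gene, was lower by -5.95 on the log2 scale (adjusted p = 3.20e-07). The medians of the 3 lists between WT tissues were -0.08, 0.16 and -0.88, beside 0.02 over all genes tested.

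**Figure D4:**
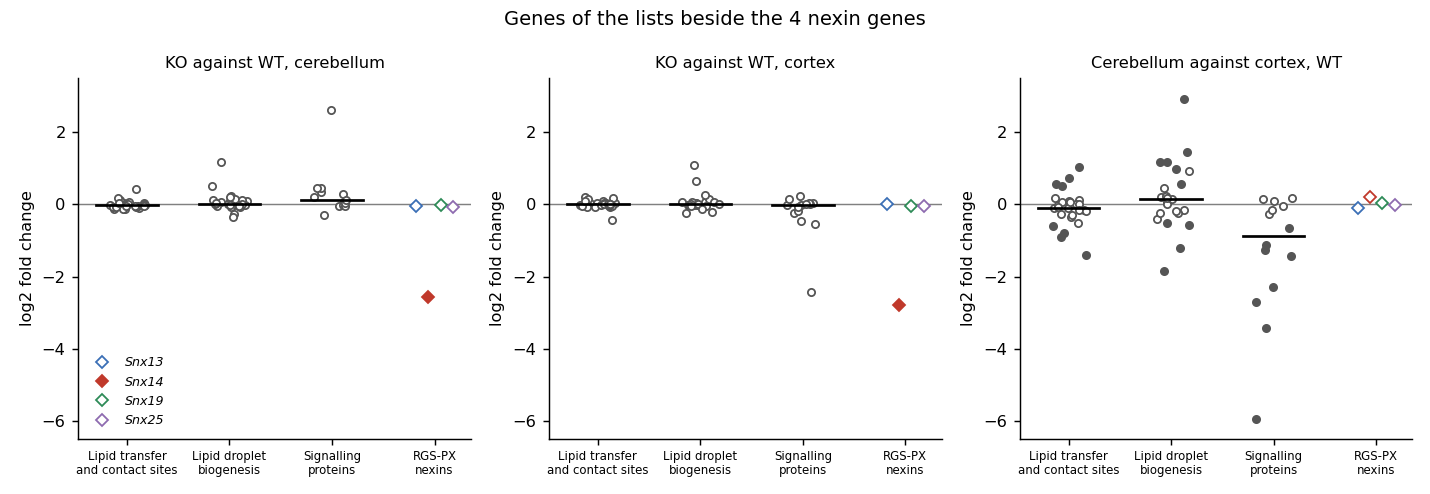
Log2 fold change (y axis) of each tested gene of the 3 lists and of the 4 nexin genes (x axis) in 3 comparisons. Circles are list genes, with a bar at the median, and diamonds are the nexin genes. Filled symbols passed the call rule, which in the KO comparisons *Snx14* alone did (-2.57 in cerebellum and -2.80 in cortex).

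The libraries held 16672589 to 19887427 counts on genes, and their tissue labels were checked against marker genes. All 8 Purkinje cell and all 7 granule cell markers were called higher in WT cerebellum than in WT cortex, and all 8 cortical neuron markers lower. Between genotypes, edgeR called 0 of the marker genes in either tissue, and several lists had most or all of their fold changes on 1 side. The summed level of 7 meningeal fibroblast markers was 47.2 to 73.8 TPM in WT and 92.2 to 110 TPM in *Snx14*-KO cerebella, with a positive fold change for all 7, 6 of them at an unadjusted p under 0.05 and 5 called by DESeq2. In cortex all 7 were again positive, with a median log2 fold change of 0.82 and 4 at such a p, and the sums overlapped (36.7 to 57.2 TPM in WT and 45.9 to 93.7 in *Snx14*-KO mice). Of 7 granule cell markers, 6 had a negative fold change in cerebellum, with a median of -0.30, 4 at an unadjusted p under 0.05 and 1 called by DESeq2. All 7 oligodendrocyte markers had a negative fold change in cortex, with a median of -0.24, 4 at such a p and 0 called by DESeq2. The 8 microglia and macrophage markers summed to 307 to 390 TPM in WT and 374 to 990 TPM in *Snx14*-KO cerebella, where the median was 408 and 1 library made up the upper end. The genotypes overlapped, since the lowest *Snx14*-KO sum lay under the highest WT sum. All 8 had a positive fold change in cerebellum, with a median of 0.67, 4 at an unadjusted p under 0.05 and 0 called by DESeq2. Of 7 astrocyte and Bergmann glia markers, 5 had a positive fold change in cerebellum, with a median of 0.25 and 3 at such a p, and of 8 Purkinje cell markers 7 had a negative one, with a median of -0.11 and 1 at such a p. Choroid plexus markers, 5 in all, ranged from 163 to 20180 TPM among the WT cerebella alone, and all 5 had a negative fold change between genotypes there, with a median of -0.81 and 0 at an unadjusted p under 0.05. In cortex they summed to 28.8 to 341 TPM in WT and 8.54 to 22.2 TPM in *Snx14*-KO mice, without overlap. The 3 tested there all had a negative fold change, with a median of -1.48, 2 at an unadjusted p under 0.05 and 0 called by DESeq2. Of the other lists, 6 of 7 oligodendrocyte markers had a negative fold change in cerebellum (0 at such a p), 6 of 7 astrocyte and Bergmann glia markers a positive one in cortex (1 at such a p), and DESeq2 called 1 of 5 cortical neuron markers tested in cerebellum. The part of these differences in the nexin levels was not tested.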

How the data were processed

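The data are 12 bulk RNA-Seq libraries of mice aged 1 month, 3 for each tissue (cerebellum, cortex) and genotype (WT, *Snx14*-KO), from separate mice within a group. The authors trimmed the reads, aligned them to GRCm38 with STAR and counted them on genes with featureCounts (Subread 2.0.1, per the labels), and deposited those counts unnormalized. Read pairs were counted as fragments for every gene they overlapped, without regard to strand, and pairs with several mapping positions or on different chromosomes were left out. The counting thus merges all transcripts of a gene and repeats pairs in shared exons.

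Of 81881 features, the 55536 annotated genes were used. The 26248 numbered features (0.0506% to 0.0632% of counts) and 97 spike-ins (0 counts) were left out. No 2 libraries of a group were identical, and the lowest chi-square per gene between them was 6.42.

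Comparisons used R 4.3.3 and edgeR 4.0.16 (filterByExpr, TMM, glmQLFit and glmQLFTest) with Benjamini-Hochberg adjustment over all genes tested, on the libraries of the groups compared. Standard errors and 95% confidence intervals come from these fits, and every adjusted p without a named tool is from the quasi-likelihood test. Genes were called at an adjusted p below 0.05 with a log2 fold change beyond 0.50 in either direction, or at the adjusted p alone for the tissue by genotype interaction. TPM were computed from the deposited counts and the gene lengths in the same files. Sequences come from the GENCODE vM21 transcripts (GRCm38), with proteins aligned by Biopython 1.88 and MAFFT 7.526. Alternatives were DESeq2 1.42.0, other scalings, no filter beyond 1 count, each library left out, a replicate block and all 12 libraries in 1 fit.

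The labels number the mice, so libraries of both tissues with the same genotype and number were taken as 1 mouse. In the tissue and interaction comparisons the main fits did not use this pairing, and the replicate block did. Deviations of such libraries from their group means correlated at 0.121, 0.186 and 0.0818 in WT and 0.373, 0.0271 and 0.124 in *Snx14*-KO mice.

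The members, gene lists and tests were chosen with earlier results of these data known. Named genes are the 4 members, genes whose exons overlap them, the 3 genes most like each member over the 12 libraries (mean CPM of at least 1), and list genes called in a knockout comparison or, between WT tissues, the 3 of each list with the smallest p. Other list genes given with values were named after those were seen.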

Additional observations from a re-analysis of the deposited data

How the results depend on the processing

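Of 260 values of the 4 genes under alternatives, 242 kept their direction and their side of the call rule, 17 turned sign and 1 passed the rule. The *Snx14* fall kept both in all 12 alternatives of each tissue, from -2.60 to -2.54 in cerebellum and -2.84 to -2.76 in cortex. The turned values were at most 0.098 in size, and none was called. Library sizes alone turned *Snx19* in the cerebellar KO comparison to 0.010, *Snx13* and *Snx25* between WT tissues to 0.040 and 0.098 and *Snx25* between KO tissues to 0.076, and raised *Snx14* there to 0.57 (adjusted p = 0.00460 by the quasi-likelihood test), where all genes shifted by 0.12 (WT) and 0.14 (KO). With single libraries left out, *Snx19* in the cerebellar KO comparison ranged from -0.10 to 0.072, turning without WT mouse 2 (0.021), WT mouse 3 (0.00031) or KO mouse 2 (0.072). In cortex, *Snx13* ranged from -0.030 to 0.024 and was negative without WT mouse 1 (-0.030) or KO mouse 2 (-0.012), and *Snx25* ranged from -0.075 to 0.0098 and was positive without WT mouse 3 (0.0061) or KO mouse 2 (0.0098). Between WT tissues, *Snx25* ranged from -0.060 to 0.031, turning without mouse 3 in cerebellum (0.031) or cortex (0.00034). Between KO tissues, *Snx19* ranged from -0.042 to 0.14 and was negative without cerebellum mouse 1. In the interaction, *Snx19* ranged from -0.089 to 0.093, turning without WT (-0.017) or KO (-0.089) cerebellum mouse 1, and *Snx25* ranged from -0.097 to 0.0042, turning without KO cortex mouse 3. The cause was not tested.

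Over all genes, the single call of the cerebellar KO comparison became 164 with DESeq2, 2 with library sizes alone, 347 without the filter, 45 with all 12 libraries, 10 and 2 without WT mice 2 and 3 and 254 without KO mouse 2. In cortex it became 9 with DESeq2, 149 without the filter and 2 with all 12 libraries or without KO mouse 1. The interaction went from 0 to 36 with DESeq2, 418 without the filter, 1 without WT cerebellum mouse 1 and 257 without KO cerebellum mouse 2. With a replicate block, *Snx14* was at -2.57 in cerebellum and -2.80 in cortex between genotypes and at 0.21 (WT) and 0.44 (KO) between tissues, and the block changed no call of the 4 genes. WT and KO mice share only a number, since they are different animals, and the deviations of same-numbered libraries correlated between -0.104 and 0.0948. The ratio of WT cerebellum to WT cortex moved by less than its SD, taken from the spread of both groups as unpaired, when TMM-normalized RPKM replaced TPM, from 1.21 to 1.15 for *Snx14*, 0.985 to 0.940 for *Snx13*, 1.08 to 1.03 for *Snx19* and 1.02 to 0.979 for *Snx25*, which passed to the other side of 1. For *Snx14* and *Snx13* the RPKM value lies under the TPM ratios of all 3 WT mice. Depth leaves 129 to 217 read pairs on *Snx14* in KO libraries, and the paralogs rest on 910 or more in every library.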
